A study of Mus musculus with 9 samples.

Results

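The mitochondrial respiratory chain genes described here are the nuclear genes for subunits of the 4 electron transport complexes and of ATP synthase. They were chosen by symbol, as every gene of the platform annotation whose symbol starts with Nduf, Sdh, Uqcr, Cox4, Cox5, Cox6, Cox7, Cox8 or Atp5, without the assembly factors named Ndufaf and Sdhaf. The rule found 79 of the 12394 genes named on the array, carried by 150 probe sets. For a gene with several probe sets, the one with the highest mean on the 9 arrays was read, and 77 of the 79 reached log2 = 6 on at least 1 array, as did 10032 of the 12394 genes. These 77 were at or above log2 = 6 on all 9 arrays. They comprised 33 subunits of complex I, 4 of complex II, 8 of complex III, 15 of complex IV (of 17 by the rule) and 17 of complex V. Ndufa4 and Cox7a2l were counted with complex IV, where their proteins are found.

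The macrophages were taken from the peritoneum of mice injected with thioglycollate, an irritant that recruits them, and total RNA was prepared from wild-type mice, MyD88-/- mice (MyD88 KO) and TRIF-/- mice (TRIF KO). MyD88 and TRIF are the adaptor proteins through which Toll-like receptor 4 passes on the signal of bacterial lipopolysaccharide (LPS). They were taken unstimulated at 0 h, or after 1 h or 4 h with LPS at 100 ng/ml, which made 9 groups of 1 Affymetrix array each. The design asks how the response to LPS depends on either adaptor. The 0 h cells were therefore recruited and not resident macrophages. The age, sex and genetic background of the mice, the construction of both deletions, any pooling of mice and any batch are not stated by the labels. Since the labels do not say whether different mice or cultures lie behind the arrays of 1 genotype, a p-value reflects only how far these arrays spread, and that spread may be technical.

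Complexes I and II take electrons from NADH and succinate, complex III passes them on to cytochrome c, and complex IV reduces oxygen. Complexes I, III and IV pump protons across the inner mitochondrial membrane, and ATP synthase, also called complex V, uses the gradient to make ATP. A few core subunits are encoded by mitochondrial DNA and all others by the nucleus, where the factors NRF1 and GABPA are known regulators of many of these genes. Macrophages activated by LPS are known to shift from respiration towards glycolysis, and succinate and complexes I and II are known sources of signals in that state.

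Promoters are shown for 3 of the 6 genes that passed a test, Ndufs5, Ndufs7 and Sdhb. Promoters are also shown for Uqcr11, which had the lowest 4 h estimate, and for Sdhd, a member with both of the motifs marked. Each is the run of 250 bases before an annotated start in RefSeq's GRCm38.p6 sequence, written 5′ to 3′ on the gene's strand, and capitals mark CCGGAAG, a site type bound by GABPA and other ETS factors, or the NRF1 motif (GCGCA, any base, then GCGC), on either strand. The windows lie at chr4:123718187-123718436 (minus strand) for Ndufs5, chr10:80249199-80249448 (plus) for Ndufs7, chr4:140961021-140961270 (plus) for Sdhb, chr9:50603850-50604099 (minus) for Sdhd and chr10:80406822-80407071 (minus) for Uqcr11.
Ndufs5 promoter: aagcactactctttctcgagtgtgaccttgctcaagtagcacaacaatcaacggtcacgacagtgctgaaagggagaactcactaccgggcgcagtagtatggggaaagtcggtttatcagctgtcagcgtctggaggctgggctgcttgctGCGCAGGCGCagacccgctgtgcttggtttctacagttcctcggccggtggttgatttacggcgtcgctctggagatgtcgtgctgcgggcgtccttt
Ndufs7 promoter: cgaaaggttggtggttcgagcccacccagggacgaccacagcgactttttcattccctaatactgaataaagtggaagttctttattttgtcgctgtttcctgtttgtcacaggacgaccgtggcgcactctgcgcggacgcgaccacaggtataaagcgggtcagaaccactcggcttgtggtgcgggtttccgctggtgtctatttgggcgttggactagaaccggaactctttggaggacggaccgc
Sdhb promoter: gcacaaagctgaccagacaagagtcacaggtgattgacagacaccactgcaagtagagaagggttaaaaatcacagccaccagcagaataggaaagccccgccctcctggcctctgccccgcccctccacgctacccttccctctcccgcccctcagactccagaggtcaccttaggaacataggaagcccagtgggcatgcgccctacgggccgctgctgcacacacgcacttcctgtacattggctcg
Sdhd promoter: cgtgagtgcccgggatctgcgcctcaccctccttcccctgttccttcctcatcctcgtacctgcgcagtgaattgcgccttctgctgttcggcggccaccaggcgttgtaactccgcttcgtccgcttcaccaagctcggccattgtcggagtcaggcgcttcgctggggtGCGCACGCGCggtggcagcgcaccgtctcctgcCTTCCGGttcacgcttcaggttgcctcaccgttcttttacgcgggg
Uqcr11 promoter: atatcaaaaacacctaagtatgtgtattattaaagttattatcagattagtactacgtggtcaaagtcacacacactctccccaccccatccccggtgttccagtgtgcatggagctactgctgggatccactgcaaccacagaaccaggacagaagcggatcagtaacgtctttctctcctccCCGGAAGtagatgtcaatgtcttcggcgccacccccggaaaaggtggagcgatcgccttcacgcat

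The Ndufs5 window held the NRF1 motif and the Uqcr11 window CCGGAAG, whereas the Sdhd window held both, with CCGGAAG on the opposite strand. The windows of Ndufs7 and Sdhb held neither string of letters, nor did those of Ndufa3 and Cox7a2, which are not printed. RefSeq windows were found for 65 of the 79 genes, 70 windows in all. CCGGAAG was present in 17.1% of these windows and in 6.91% of all 32851 windows of the same length. The NRF1 motif was present in 15.7% of member windows and in 3.74% of all. At least 1 of both motifs lay in 20 member windows, 28.6%, against 10.1% of all. Of the other motifs searched on both strands, the Sp1 motif GGGCGG (34.3% of member windows, 32.74% of all), the NF-Y motif CCAAT (38.6%, 33.85%) and the TATA motif TATAAA (10.0%, 12.37%) had shares nearer to those of all windows. The CREB motif TGACGTCA lay in 4.3% of member windows and 1.55% of all, and the motif AAGGTCA of the ERR family in 5.7% and 4.08%. The NF-kB motif (GGG, any 2 bases, then TTTCC) lay in 1.4% of member windows and 1.41% of all. For 22 member windows, 31.4%, another gene started on the opposite strand within 1000 bases upstream of the annotated start, leading away, against 11.4% of all windows. A match of letters is a description and not a site in use.

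The labels' cell type and treatment were visible in the data. All 8 macrophage markers reached log2 = 6, with a list mean between 11.6 and 11.8 on every array. The 6 LPS response controls rose at 4 h, among them Acod1, the itaconate-producing enzyme, by 3.67 (limma, SE 0.196), and Tnf, a cytokine, by 1.93 (SE 0.277). Myd88 read 9.57, 9.58 and 10.00 in wild type at 0, 1 and 4 h, 9.56, 9.54 and 9.96 in TRIF KO and 9.30, 9.19 and 9.34 in MyD88 KO, so its signal was lower in MyD88 KO but not lost. The sources used here do not say whether this probe set lies in the deleted part, and the TRIF gene is named by no probe set used here. Correlations between arrays over the 10032 genes were 0.969 to 0.996.

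In wild-type macrophages the respiratory chain genes stood lower after 1 h of LPS, and lower by a small amount per gene. The median of the 77 members minus the 0 h value was -0.21 on the log2 scale, a ratio of 0.863, with a range from -0.45 to 0.21. Of the 77, 73 were below their 0 h value, against 54.9% of all genes, and 31 were lower by at least 0.25, against 10% of all genes. None was higher by at least 0.25, against 4.99% of all genes, and none lower by at least 0.5, against 0.179%. These are differences of 2 arrays, with no replicate check and no test.

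Bright probe sets as a whole stood lower on that array. Among the 2635 genes with a mean of at least log2 = 9, which include 68 members, the median difference at 1 h was -0.11, 74.1% were below 0 and 16.5% were lower by at least 0.25. With every array centred on these bright genes, an alternative added after the data were seen, the member median was -0.11. The reference transcripts had a median of -0.06. What share of the members' difference belongs to this array as a whole was not tested. In bulk RNA of this kind, fewer cells of a type and less RNA per cell cannot be told apart.

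In both knockouts the members lay close to their 0 h values at 1 h. The member median was 0.02 in MyD88 KO, with 34 of 77 below 0 (58.1% of all genes, 40.1% of bright genes), and -0.01 in TRIF KO, with 46 of 77 below 0 (47.3% of all genes, 50.2% of bright genes). The medians of the bright genes were 0.02 and 0.00 in the same order. The MyD88 KO median turned to -0.0048 with arrays centred on the bright genes and to -0.014 with centring on the reference transcripts. The wild-type array at 1 h held the lowest of the 9 values for 48 of the 77 members, against 15.5% of all genes, and the wild-type array at 0 h held the highest for 29, against 14% of all genes. The bright genes leaned the same way on these arrays. Their median difference from the gene's mean over the 9 arrays was lowest at 1 h (-0.06) and highest at 0 h (0.04) in wild type. The same shares for bright genes were not counted.

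**Figure D1:**
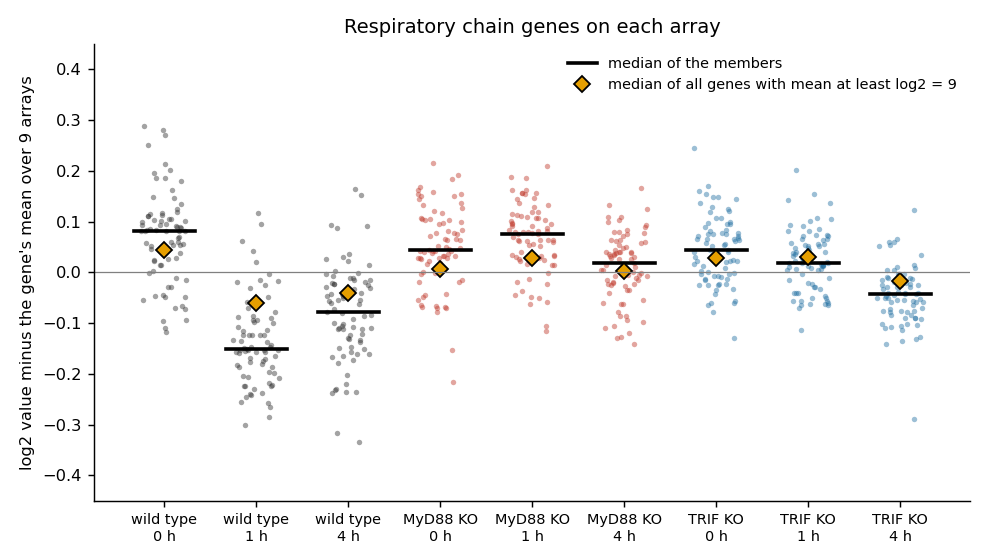
Log2 value of each of the 77 respiratory chain genes on each array, minus that gene's mean over the 9 arrays; points are genes, bars the member median and diamonds the median of all genes whose mean reached log2 = 9. The member median is lowest on the wild-type array at 1 h, at -0.15 against -0.06 for the bright genes, and highest on the wild-type array at 0 h, at 0.08.

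Ndufb11, an accessory subunit of complex I named here after its values were seen, had the lowest 1 h difference in wild type. It read 10.96, 10.51 and 10.59 in wild type at 0, 1 and 4 h, 10.68, 10.86 and 10.68 in MyD88 KO and 10.87, 10.88 and 10.69 in TRIF KO. The 1 h difference was -0.45 in wild type, while the knockouts' 1 h arrays lay above their own 0 h values. Ndufa4, a complex IV subunit first assigned to complex I, read 11.09, 10.65 and 10.80 in wild type, 10.66, 10.84 and 10.73 in MyD88 KO and 10.87, 10.90 and 10.80 in TRIF KO. Its wild-type value at 0 h was the highest of the 9, so the 1 h difference of -0.44 starts from a level that neither knockout had at 0 h.

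The additive limma fit of genotype and time, which takes the 3 genotypes as replicates of a time, called no member at 1 h. Of all genes, 0.289% rose and 0 of 10032 fell by limma with Benjamini-Hochberg adjustment at 0.05. Without adjustment, 5 of the 77 members had p under 0.05, all 5 lower, against 5.41% of all genes in either direction. The fitted member median was -0.07, against -0.02 for all genes and -0.03 for the bright genes. All 3 arrays at 1 h lay below all 3 arrays at 0 h for 5 members, 6.49%, against 5.84% of all genes.

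**Figure D2:**
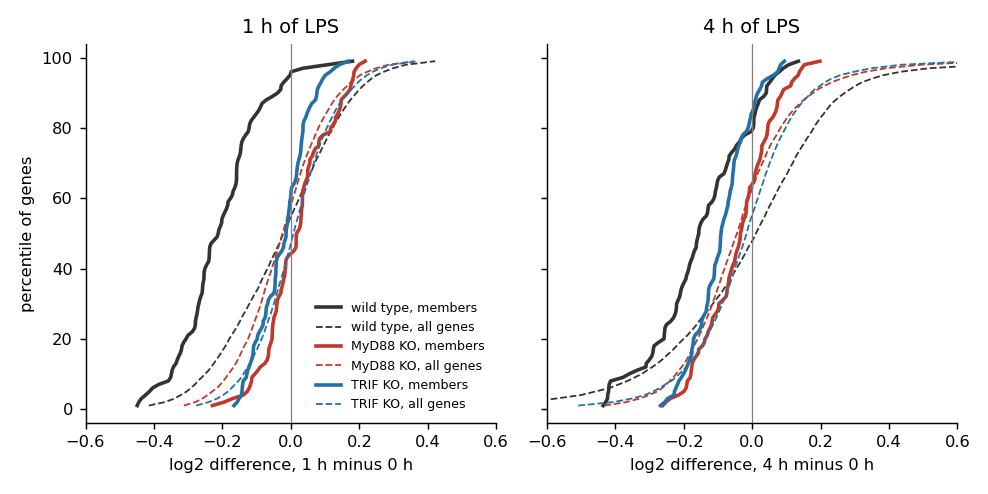
Percentiles of the log2 difference from 0 h at 1 h (left) and 4 h (right), for the 77 respiratory chain genes (solid) and all 10032 genes (dashed) in each genotype; the horizontal axis is limited to 0.6 on either side. The solid wild-type curve lies left of the dashed wild-type curve at 1 h, and at 4 h from percentile 6 upward. The medians are -0.21 and -0.16 against -0.02 and 0.01. Below that percentile at 4 h the solid curve lies to the right, at -0.42 against -0.46 at percentile 5.

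By complex, the wild-type difference at 1 h was below 0 for all 33 members of complex I (median -0.24), all 17 of complex V (median -0.25), 7 of 8 of complex III (median -0.20), 3 of 4 of complex II (median -0.19) and 13 of 15 of complex IV (median -0.12), against 54.9% of all genes and 74.1% of bright genes. At 4 h the medians in wild type were -0.22 for complex I, -0.16 for complex V, -0.13 for complex II, -0.11 for complex III and 0.00 for complex IV. In wild type at 4 h, 7 of the 15 complex IV members and 31 of the 33 complex I members were below 0, against 47.8% of all genes and 65.5% of bright genes. The complex IV members above 0 included isoforms known from lung, muscle or testis, Cox4i2 (0.12), Cox6a2 (0.04), Cox6b2 (0.02), Cox8b (0.18) and Cox8c (0.08). All of these but Cox8c had means below log2 = 7. The others above 0 were Cox5b (0.04), Cox7a2 (0.06) and Cox8a (0.005). At 1 h in wild type the complex IV members above 0 were Cox8b (0.21) and Cox8c (0.17). No median was taken without the isoforms of lung, muscle and testis. The differences between complexes were not tested. In MyD88 KO at 4 h the medians were -0.03, -0.19, 0.03, -0.05 and -0.01 for complexes I to V in order, and in TRIF KO they were -0.10, -0.11, -0.06, -0.05 and -0.10.

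**Figure D3:**
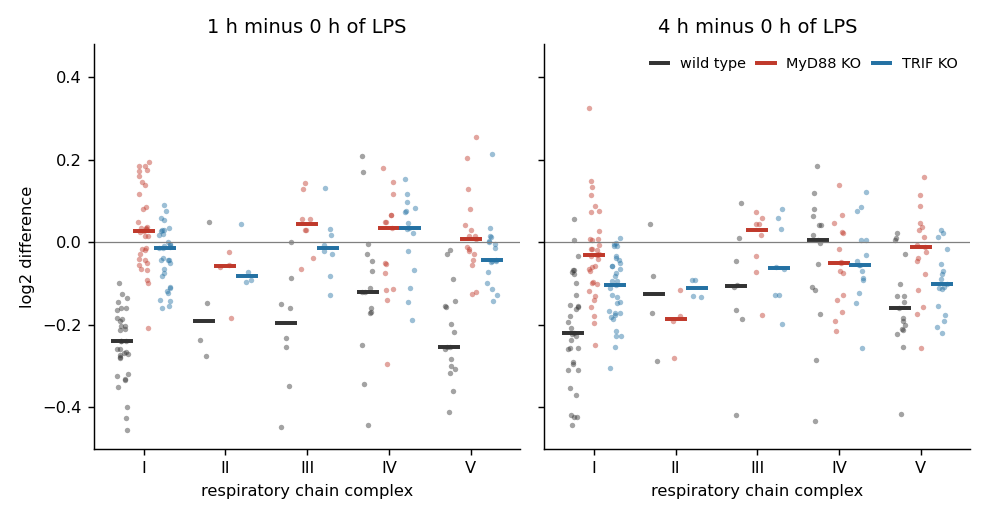
Log2 difference from 0 h of each respiratory chain gene by complex, at 1 h (left) and 4 h (right), in wild type, MyD88 KO and TRIF KO; points are genes and bars medians. In wild type at 1 h all complex I and complex V points lie below 0, and at 4 h the complex IV bar lies at 0.00. The complex IV points include isoforms known from lung, muscle or testis.

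At 4 h, 2 of the 77 members fell across the genotypes and none rose. The 2 were Ndufs7, an iron-sulfur subunit of complex I near its quinone site, and Sdhb, the iron-sulfur subunit of complex II. Of all genes, 7.13% fell and 4.62% rose by the same rule, limma with Benjamini-Hochberg adjusted p under 0.05, so 2 of 77 lies below the background. Unadjusted, 18 members had p under 0.05, all lower, against 23.9% of all genes in either direction.

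Ndufs7 read 9.97, 9.70 and 9.74 in wild type at 0, 1 and 4 h, 10.02, 9.92 and 9.77 in MyD88 KO and 10.00, 9.90 and 9.78 in TRIF KO. All 3 values at 4 h lay below all 3 at 0 h, and the values at 4 h were close together. It fell by 0.23 (SE 0.065), a ratio of 0.85, with a limma Benjamini-Hochberg adjusted p of 0.0357. A second Ndufs7 probe set, not used in the fit, gave 4 h differences of -0.46, -0.25 and -0.24 in the same order of genotypes.

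Sdhb read 11.25, 11.01 and 10.96 in wild type at 0, 1 and 4 h, 11.38, 11.33 and 11.10 in MyD88 KO and 11.33, 11.23 and 11.20 in TRIF KO. Within each genotype the 4 h array was the lowest of the 3, and the 4 h and 0 h values did not overlap. It fell by 0.23 (SE 0.068), with a limma Benjamini-Hochberg adjusted p of 0.0416. The other 3 complex II genes did not pass. The 4 h estimates were -0.15 for Sdha, the flavoprotein that oxidises succinate, -0.11 for Sdhd and -0.08 for Sdhc, both membrane anchors. For Sdhc the sign turned to 0.07 when probe sets ending in _x_at or _s_at were left out.

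Of the 9 fits that left out 1 array, 2 called Ndufs7 and 2 called Sdhb. Their estimates stayed between -0.26 and -0.21 for Ndufs7 and between -0.28 and -0.19 for Sdhb in these fits. The number of members called at 4 h was 0 without the MyD88 KO array at 4 h, without any 1 of the 3 TRIF KO arrays, or without the wild-type array at 0 h or 4 h. It was 5 without the MyD88 KO array at 0 h and 6 without the wild-type array at 1 h. It was 0 with arrays centred on the bright genes.

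Across the 77 members the 4 h estimates leaned downward. They were below 0 for 67 of 77, against 55.3% of all genes, with a median of -0.09 against -0.02 for all genes and -0.05 for bright genes. All 3 arrays at 4 h lay below all 3 at 0 h for 23 members, 29.9%, against 15.2% of all genes and 22.5% of the bright genes. All 3 genotypes were below 0 for 37 members, 48.1%, against 27.2% of all genes and 38.4% of bright genes, and 4 members were above 0 in all 3 genotypes, 5.19%, against 17.1%. Within single genotypes the member median at 4 h was -0.16 in wild type (61 of 77 below 0, 47.8% of all genes), -0.03 in MyD88 KO (49 of 77, 62.5%) and -0.09 in TRIF KO (65 of 77, 55.1%). Of the bright genes, 65.5%, 52.2% and 62.4% were below 0 in the same order of genotypes. In wild type 19 members were lower by at least 0.25 at 4 h, against 15.2% of all genes and 22.9% of bright genes. From 1 h to 4 h no member was called by limma with Benjamini-Hochberg adjustment, against 9.81% of all genes, and 2 members had an unadjusted p under 0.05, against 21.4% of all genes. The 1 h and 4 h comparisons share the 0 h arrays.

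Uqcr11, the smallest subunit of complex III, had the lowest 4 h estimate of the 77. It read 10.07, 9.62 and 9.65 in wild type at 0, 1 and 4 h, 9.91, 9.85 and 9.74 in MyD88 KO and 9.91, 9.88 and 9.71 in TRIF KO. The 4 h arrays lay below the 0 h arrays in all 3 genotypes without overlap, and wild type spanned the widest range. Its estimate was -0.26 (SE 0.081), with a limma Benjamini-Hochberg adjusted p of 0.0536, above the threshold.

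Cox7a2l, which helps to join complexes III and IV into supercomplexes, read 11.04, 10.69 and 10.60 in wild type, 10.86, 10.92 and 10.80 in MyD88 KO and 10.99, 10.92 and 10.73 in TRIF KO. Wild type lay well below its 0 h value at both times, TRIF KO at 4 h, and MyD88 KO moved little. The 4 h estimate was -0.25 (SE 0.081; limma Benjamini-Hochberg adjusted p = 0.072). Atp5c1, the gamma subunit that turns inside the ATP synthase head, read 11.55, 11.25 and 11.34 in wild type, 11.58, 11.55 and 11.32 in MyD88 KO and 11.53, 11.52 and 11.34 in TRIF KO. At 1 h wild type alone stood low, while at 4 h the 3 genotypes stood at nearly the same level, with an estimate of -0.22 (SE 0.075; limma Benjamini-Hochberg adjusted p = 0.087).

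The highest 4 h estimates within complexes I, III and V also missed the threshold. Ndufc2, a membrane-arm subunit of complex I, had an estimate of 0.11 (SE 0.077; limma Benjamini-Hochberg adjusted p = 0.46). It read 10.44, 10.34 and 10.44 in wild type, 10.14, 10.33 and 10.47 in MyD88 KO and 10.34, 10.37 and 10.33 in TRIF KO. The MyD88 KO array at 0 h was the lowest of the 9, and the estimate was -0.0026 without the 3 MyD88 KO arrays. Uqcrb, the ubiquinone-binding subunit of complex III, read 13.00, 13.00 and 13.09 in wild type, 13.13, 13.16 and 13.17 in MyD88 KO and 13.07, 13.10 and 13.13 in TRIF KO, an estimate of 0.07. Atp5b, the catalytic beta subunit of ATP synthase, had an estimate of 0.01 and a range of 11.73 to 11.90 over the 9 arrays.

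**Figure D4:**
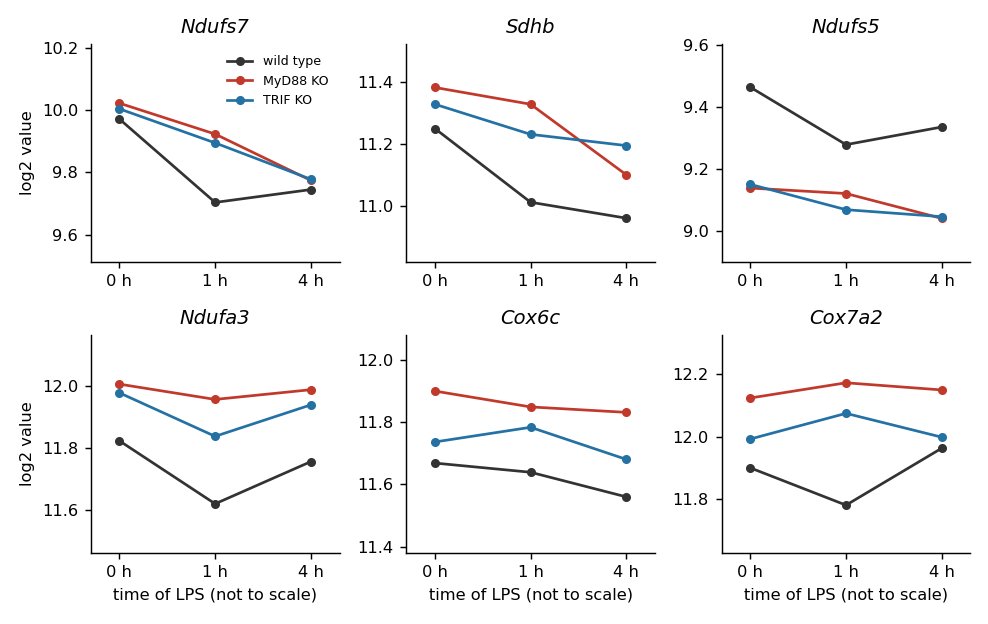
Log2 values of the 6 respiratory chain genes that passed limma's threshold in any comparison, on each of the 9 arrays, against time of LPS (positions not to scale), with a line per genotype and no error bars since each group has 1 array. Ndufs7 and Sdhb are lower at 4 h than at 0 h in all 3 genotypes, Ndufs5 is higher in wild type than in both knockouts at all 3 times, and Ndufa3, Cox6c and Cox7a2 are highest in MyD88 KO.

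Averaged over the 3 times, 3 members were higher and 1 was lower in MyD88 KO than in wild type. Ndufa3, an accessory subunit of complex I, and Cox6c and Cox7a2, small structural subunits of complex IV, rose. Ndufs5, an accessory subunit of complex I on the intermembrane side, fell. Of all genes 4.56% were higher and 2.68% lower, so 3 and 1 of 77 lie near the background. Unadjusted, 17 members were higher and 1 lower at p under 0.05, against 20.4% of all genes in either direction.

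Ndufs5 read 9.46, 9.28 and 9.34 in wild type at 0, 1 and 4 h, 9.14, 9.12 and 9.04 in MyD88 KO and 9.15, 9.07 and 9.05 in TRIF KO. All 3 wild-type arrays lay above all 6 knockout arrays, and both knockouts sat at nearly the same level. The MyD88 KO estimate was -0.26 (SE 0.063), a ratio of 0.836, with a limma Benjamini-Hochberg adjusted p of 0.0268. The TRIF KO estimate was -0.27, with an adjusted p of 0.0567 by limma with Benjamini-Hochberg adjustment. Both comparisons use the same wild-type arrays. A probe set annotated to both Ndufs5 and its pseudogene, and so not used, differed from wild type by -0.30, -0.09 and 0.06 in MyD88 KO and by -0.37, -0.14 and -0.02 in TRIF KO at 0, 1 and 4 h, so it was lower at 0 h but not at 4 h in MyD88 KO.

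Ndufa3 read 11.82, 11.62 and 11.76 in wild type, 12.01, 11.96 and 11.99 in MyD88 KO and 11.98, 11.84 and 11.94 in TRIF KO. Every knockout array lay above every wild-type array. The MyD88 KO estimate was 0.25 (SE 0.063), a ratio of 1.19, with a limma Benjamini-Hochberg adjusted p of 0.0293. A second Ndufa3 probe set was higher in MyD88 KO by 0.12, 0.38 and 0.26 at 0, 1 and 4 h.

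Cox7a2, the isoform found in most tissues, read 11.90, 11.78 and 11.96 in wild type, 12.12, 12.17 and 12.15 in MyD88 KO and 11.99, 12.07 and 12.00 in TRIF KO. The MyD88 KO arrays stood above all others, and the TRIF KO arrays lay between. The MyD88 KO estimate was 0.27 (SE 0.069; limma Benjamini-Hochberg adjusted p = 0.0321). A second probe set was higher in MyD88 KO by 0.12, 0.22 and 0.22.

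Cox6c read 11.67, 11.64 and 11.56 in wild type, 11.90, 11.85 and 11.83 in MyD88 KO and 11.74, 11.78 and 11.68 in TRIF KO. Here too the MyD88 KO arrays were the 3 highest. The estimate was 0.24 (SE 0.061; limma Benjamini-Hochberg adjusted p = 0.0339). A second Cox6c probe set did not share the pattern, with differences of -0.05, 0.05 and 0.30 at 0, 1 and 4 h.

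The number of members called in MyD88 KO was 9 without the wild-type array at 0 h. It was 1 without the wild-type array at 1 h or 4 h or the MyD88 KO array at 1 h, and 0 without the MyD88 KO array at 4 h or any 1 of the TRIF KO arrays. Of the 9 fits, 2 each called Ndufs5, Ndufa3 and Cox7a2, and 1 called Cox6c. Their estimates in these fits were -0.30 to -0.23 for Ndufs5, 0.21 to 0.28 for Ndufa3, 0.20 to 0.32 for Cox7a2 and 0.22 to 0.26 for Cox6c. With arrays centred on the bright genes 1 member was called, and with arrays centred on the reference transcripts 8 were.

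The member median in MyD88 KO minus wild type was -0.01 at 0 h, 0.22 at 1 h and 0.09 at 4 h. At 1 h, 29 members were higher by at least 0.25, against 9.27% of all genes and 15% of bright genes. At the same time 7 were below wild type, against 47.5% of all genes and 28.7% of bright genes. Over the 3 times, 28 members were above wild type at each time, 36.4%, against 18.7% of all genes and 25.4% of bright genes. All 3 MyD88 KO arrays lay above all 3 wild-type arrays for 17 members, 22.1%, against 8.5% of all genes and 12.2% of bright genes. At 0 h, 42 of 77 members were below wild type, against 45% of all genes and 60.7% of bright genes, and the median turned to 0.026 with bright-gene centring and to 0.066 with reference centring.

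No member was called between TRIF KO and wild type by limma with Benjamini-Hochberg adjustment, while 1.18% of all genes were higher and 0.419% lower. Unadjusted, 8 members had p under 0.05, 7 higher and 1 lower, against 13% of all genes. Leaving out 1 array gave at most 2 called members, without the wild-type array at 0 h. The member median was -0.04 at 0 h (0.0035 with reference centring), 0.17 at 1 h and 0.03 at 4 h, and 17 members were higher by at least 0.25 at 1 h, against 8.04% of all genes and 10.5% of bright genes. At all 3 times 20 members, 26%, were above wild type, against 20.7% of all genes and 26.8% of bright genes. All 3 TRIF KO arrays lay above all 3 wild-type arrays for 8 members, 10.4%, against 5.93% of all genes and 7.13% of bright genes. Both knockouts are set against the same wild-type arrays, so the wild-type array at 1 h enters both.

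Markers of other cells differed between the genotypes too. The mean of 7 fibroblast or mesothelium markers, of which 6 reached log2 = 6, was 6.39 to 6.42 in wild type, 6.83 to 6.89 in MyD88 KO and 6.67 to 6.87 in TRIF KO. Of these markers, 4 rose in MyD88 KO and 3 in TRIF KO, where 4.56% and 1.18% of all genes rose. The collagen gene Col3a1 was one of them in both. The mean of 4 B cell markers, of which 3 reached log2 = 6, was 6.83 to 7.16 in wild type, 6.61 to 6.67 in MyD88 KO and 6.51 to 6.57 in TRIF KO, and 2 fell in each knockout, where 2.68% and 0.419% of all genes fell. Macrophage markers had means of 11.6 to 11.7 in wild type, 11.6 to 11.7 in MyD88 KO and 11.6 to 11.8 in TRIF KO. The part of these cells in the differences of the respiratory chain genes was not tested.

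The 4 h differences of some members were far apart between genotypes. Ndufa12, a complex I subunit added late in assembly, had the widest spread, 0.57. It read 10.74, 10.31 and 10.30 in wild type at 0, 1 and 4 h, 10.65, 10.73 and 10.78 in MyD88 KO and 10.76, 10.68 and 10.57 in TRIF KO. Wild type was at -0.44 at 4 h and TRIF KO at -0.19, while MyD88 KO was at 0.13.

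Ndufab1, the mitochondrial acyl carrier protein, read 9.58, 9.42 and 9.23 in wild type, 9.37, 9.53 and 9.48 in MyD88 KO and 9.53, 9.37 and 9.39 in TRIF KO. Its 4 h differences were -0.35, 0.12 and -0.14 in that order. Ndufb7, on the intermembrane side of complex I, read 11.57, 11.23 and 11.14 in wild type, 11.53, 11.67 and 11.54 in MyD88 KO and 11.65, 11.58 and 11.39 in TRIF KO, with 4 h differences of -0.42, 0.01 and -0.25 in that order. Ndufa6, an accessory subunit that binds the acyl carrier protein, read 10.22, 9.90 and 9.80 in wild type, 9.94, 10.08 and 9.93 in MyD88 KO and 9.95, 9.94 and 9.65 in TRIF KO. In these 4 genes the MyD88 KO array at 4 h lay at or above the level of its 0 h array, or within 0.01 of it, and the other genotypes lay below theirs. With 1 array per genotype and time an interaction has no residual degrees of freedom, so these differences between genotypes were not tested.

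Several subunits of complex IV exist as isoforms. Cox4i1, the common isoform of subunit 4, read 12.46, 12.21 and 12.28 in wild type, 12.41, 12.45 and 12.39 in MyD88 KO and 12.35, 12.39 and 12.32 in TRIF KO, low at 1 h in wild type alone. Cox4i2, an isoform known from lung, ranged from 6.79 to 7.09. The common isoforms Cox6a1, Cox6b1 and Cox8a had 1 h differences of -0.17, -0.16 and -0.12 in wild type. Cox6a2, an isoform of heart and skeletal muscle, ranged from 6.68 to 6.93 over the 9 arrays. Cox6b2, known from testis, ranged from 6.20 to 6.57, and Cox8b, another muscle isoform, from 6.05 to 6.28, just above the filter. Cox8c, also known from testis, read 8.93 to 9.23. Below the filter, Cox7a1, the muscle isoform of subunit 7a, ranged from 4.92 to 5.34, and Cox7c, a subunit of all tissues, from 5.52 to 5.85. Levels of different probe sets cannot be set against each other, so the low Cox7c signal does not give its abundance.

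The 3 genes of the c subunit, which forms the rotor ring of ATP synthase, encode the same mature protein. Atp5g1 read 9.88, 9.58 and 9.78 in wild type, 9.95, 9.91 and 9.94 in MyD88 KO and 9.91, 9.92 and 9.93 in TRIF KO. Its wild-type arrays were the 3 lowest. The wild-type differences at 1 h were -0.30 for Atp5g1, -0.20 for Atp5g2 and -0.16 for Atp5g3, and in the knockouts those of all 3 genes lay between -0.04 and 0.04. None of the 3 passed in any comparison.

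The pattern was shared by most probe sets of the members. Of the 142 member probe sets reaching log2 = 6, 129 were below 0 at 1 h in wild type, against 54.9% of all genes and 74.1% of bright genes. In 33 of the 42 genes with several such probe sets all of them had the same sign. With 129 of 142 probe sets below 0, a shared sign within a gene is frequent by itself. The share over all genes was not counted. Of the 8 probe sets annotated to a member together with another gene, all 8 were below 0 at 1 h in wild type. The mitochondrially encoded ND5, a complex I core subunit added after the annotation was seen, lay the other way, at 12.23, 12.42 and 12.32 in wild type at 0, 1 and 4 h, which is 0.19 higher at 1 h. It read 12.21, 12.23 and 12.34 in MyD88 KO and 12.12, 12.26 and 12.26 in TRIF KO.

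Members with and without a motif had overlapping ranges. The 19 measured members with CCGGAAG or the NRF1 motif in a window had a median difference of -0.26 at 1 h in wild type, from -0.45 to -0.15. The 44 with a window but neither motif had a median of -0.21, from -0.45 to 0.21. The 14 measured members without a window, for which motifs are not known, had a median of -0.08, from -0.35 to 0.17. They include the lung, muscle and testis isoforms Cox4i2, Cox6a2 and Cox8c, while Cox6b2 and Cox8b are among the 44 with neither motif. The groups thus differ in make-up as well. At 4 h the medians of the fitted estimates were -0.11 with a motif, -0.09 with neither and -0.07 without a window. These groups were not tested against each other.

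Other mitochondrial genes stood lower on the wild-type array at 1 h as well. The 74 mitochondrial ribosomal protein genes had a median of -0.23, with 73 below 0, and the 20 import genes of the Tomm and Timm families a median of -0.15, with 19 below 0, against 54.9% of all genes and 74.1% of bright genes. The 11 complex I assembly genes had a median of -0.17, the 15 complex IV assembly genes -0.25, and the 16 genes of pyruvate dehydrogenase and the TCA cycle -0.14. Glycolysis genes, which are not mitochondrial, had a median of -0.11 over 15 genes, and the 15 regulators of mitochondrial DNA and biogenesis -0.03. The median of bright genes on the same step was -0.11.

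**Figure D5:**
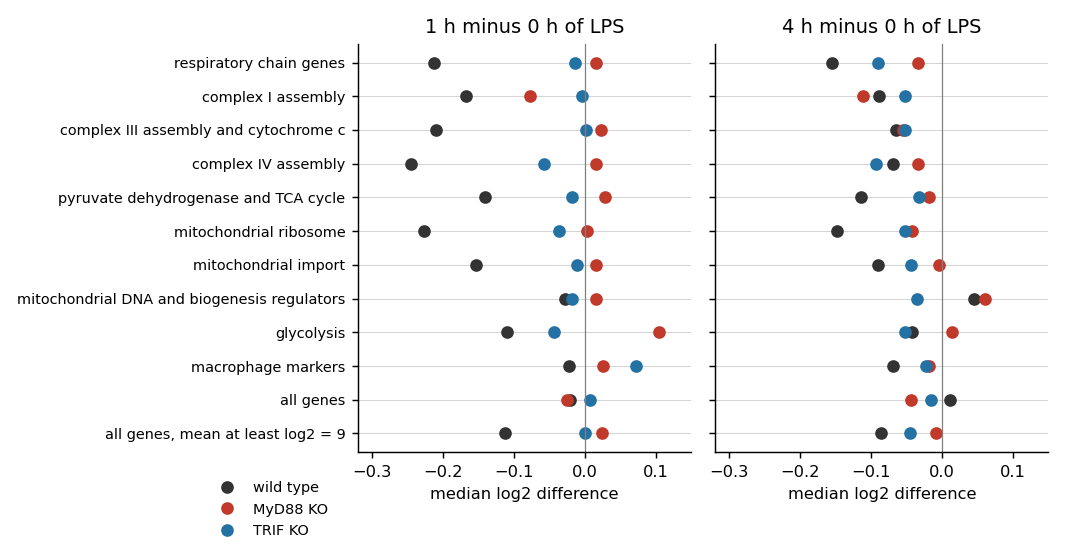
Median log2 difference from 0 h of the respiratory chain genes, of related gene lists and of all genes, at 1 h (left) and 4 h (right), for each genotype. In wild type at 1 h the respiratory chain genes (-0.21), the mitochondrial ribosome (-0.23) and complex IV assembly (-0.25) lie left of the bright genes (-0.11), while the biogenesis regulators lie at -0.03.

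At 4 h few genes of these lists passed limma's threshold with Benjamini-Hochberg adjustment, while 7.13% of all genes fell and 4.62% rose. Among assembly genes, Aifm1, a flavoprotein needed for complex I assembly, fell by 0.37 (adjusted p from limma 0.00822), as did Ndufaf7, a methyltransferase for complex I, by 0.29, Sdhaf4, an assembly factor of complex II, by 0.23, and Surf1, of complex IV, by 0.25. These were 2 of 11, 1 of 3 and 1 of 15 measured genes. Of 16 genes of pyruvate dehydrogenase and the TCA cycle, Idh3g, a subunit of isocitrate dehydrogenase, fell by 0.29 and Dld, the shared E3 subunit, rose by 0.31. Of 15 regulators, Gabpb1, the partner subunit of GABPA, rose by 0.27. Of 15 glycolysis genes, Slc2a1, the glucose transporter GLUT1, rose by 0.38 and Pfkfb3, a regulator of phosphofructokinase, fell by 0.48. Of 74 mitochondrial ribosomal genes, Mrpl52 rose by 0.28, and none of the 20 import genes passed. Among 7 redox and immunometabolic genes, Acod1 rose, as did Sod2, the mitochondrial superoxide dismutase, by 1.33 and Hif1a, a hypoxia-inducible transcription factor, by 0.54, while Txnrd2, mitochondrial thioredoxin reductase, fell by 0.24.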

How the data were processed

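Each array's file column holds the authors' deposited log2 values. Per the submitters' processing notes they come from RMA, which corrects background, normalizes the quantiles of arrays and summarises probes. The sources used here give neither its version nor whether all 9 arrays were processed jointly. The values were used as deposited. Precision is limited by how many arrays there are, 1 per group.

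Probe sets with 1 symbol in the platform annotation (20393 of 22690) named genes, with symbols updated to RefSeq. The 691 with several symbols and 1606 not listed named none. The 8 of these that name a member beside another gene were not used. Members and gene lists were chosen with earlier results of these data known, and mitochondrially encoded genes were added after the annotation was seen.

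Tests used limma 3.58.1 (R 4.3.3; lmFit and eBayes, no trend, two-sided) in an additive fit of genotype and time on all 9 arrays, with 4 residual and 8.39 prior degrees of freedom and Benjamini-Hochberg adjustment over the 10032 genes reaching log2 = 6. An error there holds any response that differed between genotypes. Differences of 2 arrays have no test. Members named were those past an adjusted p of 0.05, the extremes per complex at 4 h, isoform sets and the 4 with the widest spread between genotypes, and from other lists at most 4 genes past 0.05 at 4 h. Alternatives changed filters, centring, moderation, probe sets and arrays. Figures were drawn with matplotlib 3.10.9.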

Additional observations from a re-analysis of the deposited data

Results flagged for a closer look

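The values here are differences between genotypes in the step from 0 h, where the arrays of 2 genotypes moved in opposite directions. With 1 array per group none of these differences was tested. The 33 members named in the report that reached log2 = 6 were examined, and those given moved by at least 0.1 in both genotypes, 16 of 80 pairs of opposite sign. Ndufa12, Ndufab1, Ndufb7 and Ndufa6 had been named for their spread between genotypes at 4 h, and Ndufb11 for its wild-type step at 1 h. Their place in this list therefore follows in part from that choice. The share of such pairs among all members or all genes was not counted. The member median at 1 h moved down in wild type and slightly up in MyD88 KO, and MyD88 KO minus wild type was 0.23. It also had opposite signs in TRIF KO and MyD88 KO, with a difference of -0.0302, and the sign of the MyD88 KO median turned with either centring of the arrays.

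At 1 h, MyD88 KO minus wild type was 0.64 for Ndufb11, 0.62 for Ndufa4, 0.47 for Ndufa6, 0.47 for Ndufb7, 0.32 for Ndufab1 and 0.32 for Cox6a1, each down in wild type and up in MyD88 KO. Ndufa12 had steps of -0.43 and 0.09, the second under the minimum of 0.1. Cox8c went the other way, at -0.47. TRIF KO minus MyD88 KO at 1 h was -0.32 for Ndufab1 and 0.27 for Cox4i2. At 4 h, MyD88 KO minus wild type was 0.57 for Ndufa12 and 0.47 for Ndufab1, which were down in wild type and up in MyD88 KO, and TRIF KO minus MyD88 KO was -0.32 for Ndufa12 and -0.26 for Ndufab1. The opposite held at 4 h for Cox4i2, with MyD88 KO minus wild type at -0.29, and for Cox8b, whose probe set lay just above the filter, at -0.32, with TRIF KO minus MyD88 KO at 0.26 for Cox8b.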

How the results depend on the processing

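No paired analysis was possible because each group has 1 array, so the groups share fewer than 2 replicate numbers; the fit itself compares times within genotypes and genotypes within times. The medians that lay beyond 0.04 from 0 kept their direction under all alternatives. Of the smaller ones, those of MyD88 KO at 1 h and of MyD88 KO minus wild type at 0 h changed sign with both centrings, and that of TRIF KO minus wild type at 0 h with reference centring. Centring on genes with a mean of at least log2 = 9, added after the data were seen, moved 4 of them beyond that spread (a residual SD of 0.0823), to -0.108 for wild type at 1 h, -0.0716 for wild type at 4 h, 0.128 for MyD88 KO minus wild type at 1 h and 0.0750 for TRIF KO minus wild type at 1 h. The count of members called at 4 h, 2 as reported, was 0 with that centring, 1 with centring on reference transcripts, 7 with trend and robust moderation, 5 with a maximum of at least log2 = 7, 7 with a mean of at least 9, 0 without the other factor, 4 with the mean of a gene's probe sets, 4 without the MyD88 KO arrays, 0 without the TRIF KO arrays, 0 without the wild-type arrays, and 0 to 6 when single arrays were left out. The count for MyD88 KO, 4 as reported, was 1, 8, 7 (mean of at least 9), 0 (no other factor), 0 without the 1 h arrays, 0 without the 4 h arrays, and 0 to 9 without single arrays, the first 2 values being the centrings in the same order. The count for TRIF KO, 0 as reported, was 1 with bright-gene centring, 1 with trend, 1 with a maximum of at least 7, 1 with a mean of at least 9, 2 with mean probe sets, and 0 to 2 without single arrays. At 1 h and from 1 h to 4 h it was 0 under every alternative run. Among named members whose estimate was larger than its SE, the sign turned for Ndufc2 at 4 h without the MyD88 KO arrays (-0.00264). It also turned for Sdhc at 4 h without probe sets ending in _x_at or _s_at (0.0677). The cause of these changes was not tested. Of the other values of named members, 338 kept their call, 16 gained and 73 lost a call. Among the 338, an estimate smaller than its SE could change sign. With single arrays left out, the lowest 4 h estimates were -0.0078 for Atp5b and -0.012 for Cox8b, against 0.007 and 0.056 as reported. Dim probe sets limit what can be read for the muscle isoforms and for Cox6b2. The testis isoform Cox8c was not dim, with a mean of 9.04.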
